A study of Mus musculus with 2 samples.

Results

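The cells described here are the non-cycling contractile smooth muscle cells of primary mouse aortic cultures, 576 of the 11690 cells kept in 2 scRNA-seq libraries. They were chosen from their own RNA. A barcode was kept as a cell if it held at least 300 genes, at least 3000 UMIs (unique molecular identifiers, each standing for 1 captured mRNA molecule) and under 20% mitochondrial UMIs. A kept cell was a member if it held at least 5 UMIs of *Myh11*, fewer than 3 UMIs of the proliferation genes *Mki67*, *Top2a* and *Cenpf* summed, no UMI of *Acan* and at most 1 UMI of *Pdgfra*. Replicate 1 gave 151 members of 4866 kept cells (3.1%, exact binomial 95% interval 2.63 to 3.63%), and replicate 2 gave 425 of 6824 (6.23%, 5.67 to 6.83%). The intervals cover counting error only.

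Both libraries are of 1 condition, so that no treatment was compared. They were prepared from vascular smooth muscle cells (VSMCs) of the thoracic aorta of wild type mice, pooled over several aortae, digested with enzymes and grown in serum for 5 days before capture with 10x Genomics 3' chemistry. The study used male and female mice, of a pure C57BL6/N background where not atherosclerotic, but the age and sex of the animals behind each library were not given in the sources used here. The cells carried no reporter or lineage label, so that their origin in the vessel wall is known only from their RNA. The libraries held 127949633 and 132561822 UMIs in all, and the kept cells had a median of 22234.5 and 16310 UMIs. Only 9 barcodes were shared by the kept cells of both libraries (0.185% and 0.132% of them).

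Contractile VSMCs hold the wall of an artery under tension. Calcium that enters or is released in the cell activates myosin light chain kinase, myosin then pulls on actin filaments, and the filaments are tied through dense plaques and integrins to the basement membrane and the elastic lamellae. Most genes of this machinery are read by serum response factor and its partner myocardin from a short element called the CArG box. Plating of VSMCs in serum is known to lower these genes, a change termed phenotypic modulation, and cGMP made by the guanylyl cyclases for nitric oxide and natriuretic peptides relaxes contractile cells.

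The rule was first set against its own markers. *Myh11* (smooth muscle myosin heavy chain, GRCm38 chr16:14194535-14291372) reached a median of 10 UMIs in the members of both libraries, with a highest value of 118 and 66. Summed over cells it stood at 641 and 631 CPM (UMIs per 1000000 UMIs of the summed cells) in members and at 5.22 and 4.47 CPM in the 2607 and 3971 non-cycling cells with at most 1 *Myh11* UMI (*Myh11*-low cells). These values follow from the rule. The other markers were given together with the rule and are no independent check of it. Of the other markers, *Cnn1* (calponin, an actin-binding protein, chr9:22099216-22109630) had a UMI in 95.4% and 85.2% of members and in 38.9% and 6.57% of *Myh11*-low cells. *Igfbp2* (a secreted binding protein for insulin-like growth factors, chr1:72824503-72852474) was found in 59.6% and 88.9% of members and in 17.1% and 20.9% of *Myh11*-low cells. *Mylk4* (a member of the myosin light chain kinase family, chr13:32700834-32783954) was found in 24.5% and 68.9% of members and in 0.230% and 1.59% of *Myh11*-low cells.

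Members were somewhat deeper than *Myh11*-low cells, with a median of 21409 and 18182 against 19620 and 14401 UMIs. With each cell thinned to 3000 UMIs, the shares became 74.1% and 57.2% against 15.8% and 2.39% for *Cnn1*. They became 42.3% and 80.5% against 5.72% and 10.6% for *Igfbp2*, and 13.4% and 34.5% against 0.0964% and 0.580% for *Mylk4*. All 3 markers were found together in 21.9% and 58.1% of members, and none of them in 5 and 11 members. *Mylk4* and *Igfbp2* were found in a smaller share of members than *Cnn1* in replicate 1, where most members lacked a *Mylk4* UMI.

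At the edge of the rule stood 10 and 36 members with exactly 5 *Myh11* UMIs, and just outside it 29 and 59 cells with 4 that met the other limits. *Cnn1* was at 156 CPM inside and 467 CPM outside in replicate 1, and at 217 and 189 CPM in replicate 2. *Igfbp2* was at 39.1 and 388 CPM in replicate 1 and at 1452 and 1555 CPM in replicate 2. *Mylk4* was at 14.7 and 44.8 CPM in replicate 1 and at 163 and 126 CPM in replicate 2. In replicate 1 all 3 markers were thus lower just inside the rule than just outside it, on few cells, and in replicate 2 the values lay nearer to each other.

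The comparison of interest was between members and *Myh11*-low cells of the same libraries. Cells are not replicates, so UMIs were summed per library and class and the sums were tested with the quasi-likelihood test of edgeR over 11750 genes, without the 6 genes of the rule. At an adjusted p of 0.05, 60 genes (0.511% of those tested) were higher in members and 6 (0.0511%) were lower, and 1517 genes had an unadjusted p under 0.05. DESeq2 called 392 higher and 132 lower on the same sums. Sums of 1 library come from 1 culture, and with the library as a block in the edgeR fit 930 genes (7.91%) were higher and 715 (6.09%) lower. In the following, "called" refers to the fit without the block, and calls made only with the block are named as such. The cells were sorted by *Myh11*, and members also by *Acan* and *Pdgfra*, in the same RNA that was then tested. Genes which vary together with these genes were thus bound to differ. The p-values without the block speak for the spread between 2 cultures of 1 condition. Those with the block speak for the spread that remains once the difference between the libraries is fitted.

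Among the called genes with the largest folds, the following are given in full. *Ptprz1*, a receptor-type tyrosine phosphatase (chr6:22875502-23052916), stood at 52.3 and 96.5 CPM in members and at 0.322 and 1.05 CPM in *Myh11*-low cells (log2 fold change 6.84, SE 0.87, edgeR adjusted p = 0.0357). *Itga7*, a laminin-binding integrin subunit, stood at 14.6 and 20.8 against 0.537 and 0.675 CPM (4.96, SE 0.52, adjusted p = 0.0302). *Ramp1*, which pairs with the calcitonin receptor-like receptor to bind CGRP, stood at 139 and 114 against 7.55 and 3.0 CPM (4.67, SE 0.56, adjusted p = 0.0331). In all 3 genes both member libraries lay far above both *Myh11*-low libraries.

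Further called genes were *Efhd1*, a mitochondrial calcium-binding protein (log2 fold change 5.53), *Susd5* (5.51), *Sh3bgr* (4.37), *Pdlim3*, an alpha-actinin-binding protein of the actin cytoskeleton (4.16), *Myocd* (4.02), the tetraspanin *Tspan2* (3.88), *Ppp1r14a* (3.88), the adhesion molecule *Mcam* (3.79), *Parm1* (3.39), *Akap6*, an anchor for protein kinase A (2.94), *Dmd* (2.83) and *Rasl12* (2.80). Higher and called, too, were alpha-sarcoglycan (*Sgca*), the sarcomere protein *Myom1*, the small heat shock proteins *Hspb6* and *Hspb7*, the actin-linked proteins *Actn1*, *Svil*, *Enah*, *Lpp* and *Tes*, and the secreted ligands *Pdgfa*, *Wnt16* and *Il17b*. With *Myh11*-low cells matched to the members in depth, *Ptprz1*, *Susd5*, *Akap6*, *P2rx1*, *Sgca* and *Cspg4* missed the threshold (edgeR adjusted p 0.0511 to 0.0956), at log2 fold changes of 6.13, 6.16, 2.90, 7.46, 4.55 and 2.11. *Efhd1* missed it when 10% free RNA was subtracted, although its log2 fold change was then 7.02 (adjusted p = 0.0695). The threshold was also missed by *Mcam*, *Pdlim3*, *Tspan2*, *Cspg4* and *Sgca* when *Myh11*-low cells were held to the same *Acan* and *Pdgfra* limits as members (adjusted p 0.0531 to 0.0593, log2 fold changes 2.93, 3.46, 3.39, 2.27 and 4.26). With members from 3 *Myh11* UMIs on, *Ptprz1* (0.0522) and *Sgca* (0.0909) missed it. *Sgca* and *Cspg4* also missed it with library size alone (0.0585 and 0.0591) and without the 5% of cells with most UMIs (0.0522 and 0.0568).

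A fit of only the 4 sums of both classes has fewer sums from which to estimate the spread. In it *Acta2*, *Akap6*, *Efhd1*, *Myocd*, *P2rx1*, *Parm1*, *Postn*, *Ptprz1*, *Ramp1*, *Sgca*, *Sh3bgr* and *Tagln* of the genes called higher and *Mettl7a1*, *Rab7b*, *Rras2*, *Serpinb1a* and *Serpinb9* of those called lower missed the threshold (edgeR adjusted p 0.0506 to 0.14). Their log2 fold changes were close to those given here, for instance 6.85 for *Ptprz1*, 4.03 for *Myocd* and −1.81 for *Serpinb1a*.

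**Figure D1:**
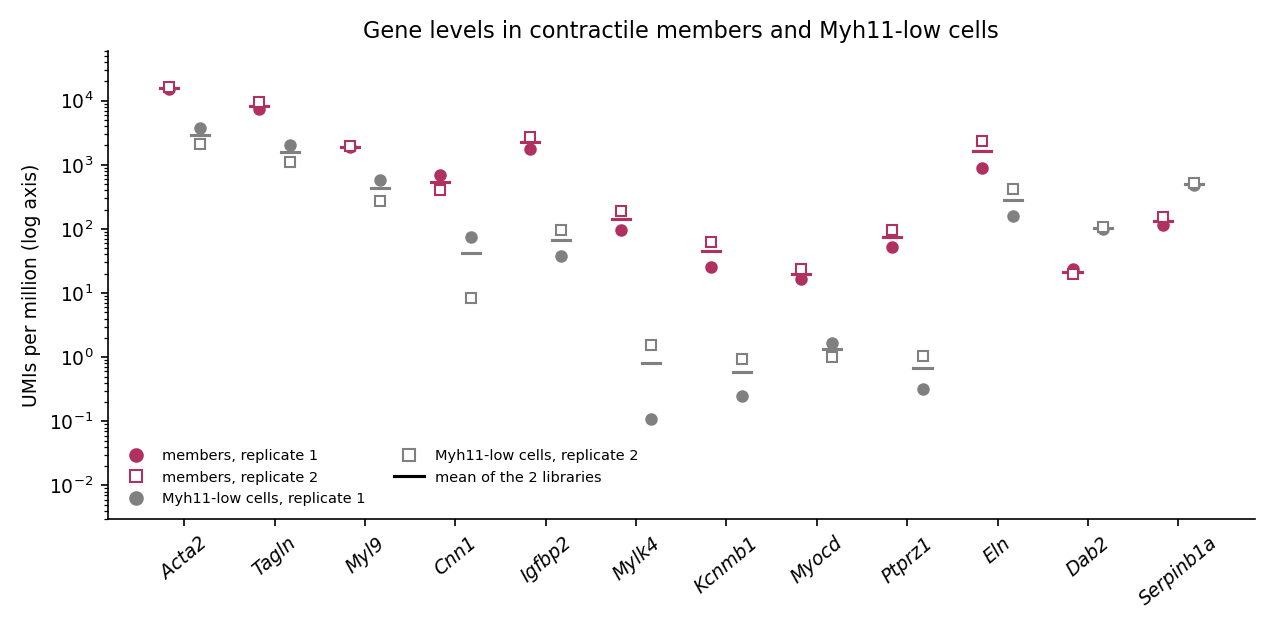
Levels in CPM (log axis) of 12 genes, with 1 point per library for members and for *Myh11*-low cells and a bar at the mean. *Acta2* lies at 15004 and 16241 CPM in members and at 3745 and 2118 CPM in *Myh11*-low cells, and for *Mylk4*, *Igfbp2* and *Myocd* both member points lie above both *Myh11*-low points.

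Of the 20 genes of the contractile filament and its regulators, all were tested. 3 were called, all higher, and with the block all 20 were called higher, against 7.91% of all genes. The median log2 fold change of the list was 2.03, and that of all tested genes was −0.005. *Acta2* (smooth muscle alpha-actin, chr19:34241090-34255590) stood at 15004 and 16241 CPM in members and at 3745 and 2118 CPM in *Myh11*-low cells (log2 fold change 2.5, SE 0.29, edgeR adjusted p = 0.0311). *Tagln* (transgelin or SM22-alpha, chr9:45929619-45936058) stood at 7361 and 9386 against 2046 and 1116 CPM (2.49, SE 0.30, adjusted p = 0.0331). In the fit of 4 sums both missed the threshold (0.0947 and 0.112) at log2 fold changes of 2.5 each.

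*Ppp1r14a* encodes CPI-17, an inhibitor of myosin phosphatase. It was at 151 and 210 CPM in members and at 15.2 and 10.8 CPM in *Myh11*-low cells (log2 fold change 3.88, SE 0.33, edgeR adjusted p = 0.0271), the smallest adjusted p of the list. The folds were far lower for *Myl6*, the essential light chain shared with non-muscle myosin, which stood at 4960 and 4428 against 3560 and 2949 CPM (0.62, adjusted p = 0.233, with the block 0.0012). *Cnn1* was at 682 and 406 against 75.7 and 8.32 CPM, and its wide gap between the *Myh11*-low libraries left it uncalled (3.77, SE 1.12, adjusted p = 0.213, with the block 0.00251). *Mylk*, the light chain kinase itself, was at 514 and 236 against 122 and 38.8 CPM (2.31, adjusted p = 0.27, with the block 0.000216). *Igfbp2* (1772 and 2698 against 37.9 and 97.2 CPM, log2 fold change 5.15, adjusted p = 0.0504) and *Mylk4* (96.2 and 193 against 0.107 and 1.52 CPM, 7.55, adjusted p = 0.0641) lay just outside the threshold and were called with the block (0.000423 and 0.000456).

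The sequences upstream of these genes were searched for the CArG box, a pair of C, then 6 bases that are A or T, then a pair of G. The box is its own reverse complement in pattern, so that both strands are covered. The windows were the 250 bases before the RefSeq start sites (GRCm38.p6). The box was found for 439 of 27025 genes (1.62%), and 1.47% of all windows held it. Among the genes tested it was found for 136 of 9118 with a window (1.49%). It was found for 3 of 18 contractile genes (*Myl9*, *Myl6* and *Fhl1*) and for 3 of 17 genes of membrane anchors and adhesion (*Dmd*, *Vcl* and *Ldb3*). It was also found for 2 of 7 heart muscle genes and for 1 of 10 genes each of the insulin-like growth factor axis and of S phase. Among lists nearer to contraction it was found for 1 of 20 channel genes, 0 of 19 receptor genes and 0 of 11 genes of nitric oxide signaling and G-protein brakes. Other lists held it for 1 gene of 13 or 14 (transcription factors, basement membrane, immediate early genes) or for none. These small counts are descriptions and set no list apart. Of the genes called higher 2 of 42 held it (4.76%, *Dmd* and *Myom1*), of those called higher with the block 33 of 692 (4.77%), and of those called lower with the block 8 of 528 (1.52%). A match describes the letters and is no proof of binding, and genes such as *Tagln* had no window in the table. The boxes of both lists are shown because they belong to genes called higher in at least the fit with the block. The box is in capitals with 10 bases on each side, 5′ to 3′ on the strand of the gene. Those of the anchor genes were added after their values had been seen.

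*Myl9* (chr2:156775293-156775322, plus strand): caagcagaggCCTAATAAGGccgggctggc
*Myl6* (chr10:128493040-128493069, minus strand): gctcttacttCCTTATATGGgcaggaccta
*Fhl1* (chrX:56779571-56779600, plus strand): ccttggatcaCCTAAAATGGttaagaattt
*Dmd* (chrX:82948762-82948791, plus strand): catgggcagtCCTATTATGGgaaagcaact
*Vcl* (chr14:20929161-20929190, plus strand): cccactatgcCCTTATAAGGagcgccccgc
*Ldb3* (chr14:34588697-34588726, minus strand): gggttacagtCCATTTATGGgcgcagcaag

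The box began 161 bases before a RefSeq start of *Myl9*, the regulatory light chain, whose level was 1872 and 1940 CPM in members and 578 and 277 CPM in *Myh11*-low cells (log2 fold change 2.24, adjusted p = 0.0551, with the block 0.00107). It began 50 bases before a RefSeq start of *Myl6* and 102 before one of *Fhl1*, both of them alternative starts that lie inside the genes as GENCODE M21 gives them. *Fhl1* encodes a LIM-domain protein (1096 and 1391 against 672 and 556 CPM, log2 fold change 1.11, with the block adjusted p = 0.00255). The log2 fold changes of the 6 genes with a box ran from 0.62 for *Myl6* to 2.97 for *Ldb3*.

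The genes of membrane anchors and adhesion encode proteins that tie the filaments to the membrane and the matrix. Of 20 genes 4 were called, all higher (*Itga7*, *Dmd*, *Pdlim3* and *Sgca*), and 16 were higher with the block, beside 0.511% and 7.91% of all genes, with a median log2 fold change of 0.96. *Dmd* (dystrophin) was at 63.0 and 80.0 against 10.1 and 11.3 CPM. Its partner alpha-sarcoglycan, *Sgca*, was at 3.38 and 4.67 against 0.286 and 0.173 CPM (log2 fold change 4.21, edgeR adjusted p = 0.0481). *Itga8*, an integrin subunit that binds fibronectin and nephronectin, was at 213 and 396 against 32.5 and 29.0 CPM (3.40, adjusted p = 0.0504, with the block 0.000901). By contrast, *Sgcb*, *Sgce*, *Sspn* and *Itga1* of the same list were called in neither fit, and their log2 fold changes lay between 0.10 and 0.43. *Itga1* was higher in members of replicate 1 (179 against 113 CPM) and lower in those of replicate 2 (64.1 against 78.8 CPM).

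Of 22 channel, pump and calcium-store genes 19 were tested. Only *P2rx1*, an ATP-gated cation channel, was called (4.78 and 3.47 against 0.0537 and 0.126 CPM, log2 fold change 5.48), and 9 were higher with the block, beside 7.91% of all genes. *Kcnmb1*, the beta subunit that raises the calcium sensitivity of the BK potassium channel, was at 25.9 and 63.3 against 0.25 and 0.926 CPM (6.33, adjusted p = 0.0504, with the block 0.000291). *Kcnma1*, the pore-forming BK subunit, was at only 3.66 and 2.63 against 0.912 and 0.722 CPM (2.00, with the block 0.00995). *Ano1*, a calcium-activated chloride channel, was at 12.9 and 10.6 against 1.22 and 2.65 CPM (2.70, with the block 0.00588). The L-type channel *Cacna1c* did not follow this order and was at 11.8 and 6.58 against 10.8 and 6.56 CPM (0.14, adjusted p = 0.961, with the block 0.699).

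Of 25 listed receptors for vasoactive hormones 20 were tested, 1 was called (*Ramp1*, higher), 2 were higher and 2 lower with the block, and the median log2 fold change was −0.53. With the block 7.91% of all genes were higher and 6.09% lower, and the counts of the receptors lie near these shares. Since the study asked how the receptors for natriuretic peptides are distributed among VSMCs, these are given in full. *Npr1* (guanylyl cyclase A, for ANP) was at 7.03 and 9.09 CPM in members and at 1.47 and 1.33 CPM in *Myh11*-low cells (log2 fold change 2.62, SE 0.43, adjusted p = 0.0585, with the block 0.00431). *Npr2* (guanylyl cyclase B, for CNP) was at 23.1 and 33.9 against 37.6 and 52.4 CPM (−0.55, SE 0.27, adjusted p = 0.472, with the block 0.0193). *Npr1* was thus higher and *Npr2* lower in the members of both libraries. *Npr3*, the clearance receptor, was at 135 and 176 against 226 and 176 CPM and was called in neither fit (−0.28).

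Of the 12 genes of nitric oxide to cGMP signaling and of G-protein brakes none was called, whereas 4 were higher and 1 lower with the block, beside 7.91% and 6.09% of all genes. The genes of the nitric oxide-sensitive guanylyl cyclase subunits are given first. *Gucy1a1* was at 98.7 and 122 against 25.4 and 23.0 CPM (log2 fold change 2.28, adjusted p = 0.0504, with the block 0.00116), and *Gucy1b1* at 53.4 and 78.5 against 17.4 and 13.6 CPM (2.19, adjusted p = 0.0502, with the block 0.00166). *Gucy1a2*, of the alpha-2 subunit, was at 11.3 and 10.5 against 8.10 and 7.31 CPM and was called in neither fit (0.59, with the block adjusted p = 0.07). *Mrvi1*, the substrate through which cGMP kinase acts on the inositol trisphosphate receptor, was at 84.1 and 79.9 against 43.0 and 30.5 CPM (1.25, with the block 0.00121). The kinase gene *Prkg1* (40.8 and 27.3 against 31.3 and 24.8 CPM) and the cGMP-hydrolyzing *Pde5a* (99.0 and 121 against 112 and 92.2 CPM) were called in neither fit. Of the G-protein brakes, *Rgs4* was higher and *Rgs2* lower with the block.

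Among 26 tested transcription factors 1 was called. *Myocd* (myocardin, chr11:65176561-65269989) was at 16.6 and 23.6 CPM in members and at 1.65 and 1.00 CPM in *Myh11*-low cells (log2 fold change 4.02, SE 0.41, edgeR adjusted p = 0.0302, in the fit of 4 sums 0.0644). Its partner *Srf* was at 35.7 and 23.7 against 33.0 and 22.0 CPM (0.19, adjusted p = 0.89, with the block 0.286), and the myocardin-related factors *Mkl1* and *Mkl2* were called in neither fit (0.01 and −0.40). With the block, the Notch target *Hey2* and the forkhead factor *Foxc2* were higher, too, and 5 factors were lower, beside 7.91% and 6.09% of all genes. These were *Klf4*, a repressor of contractile genes (118 and 90.7 against 176 and 180 CPM), the cartilage factor *Sox9* (13.8 and 51.4 against 40.5 and 100.4 CPM), *Tcf21* (1.13 and 1.08 against 4.94 and 9.23 CPM), *Prrx1* and *Meis1*. The median over the list was 0.01.

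Of 14 Notch and TGF-beta genes none was called, and with the block 3 were higher and 1 was lower, beside 7.91% and 6.09% of all genes. The higher ones were the ligand *Tgfb2* (250.3 and 455 against 82.7 and 111 CPM, log2 fold change 1.96), the ligand *Tgfb3* (334 and 128 against 95.3 and 49.5 CPM, 1.76) and the latency protein *Ltbp1* (0.64). The lower one was the receptor *Tgfbr2* (38.0 and 42.0 against 53.4 and 64.2 CPM, −0.46). *Notch3* was at 42.8 and 9.21 against 19.7 and 10.0 CPM and thus higher in replicate 1 only.

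The matrix around contractile cells is made of basement membrane and elastic lamellae. Of 16 basement membrane genes 0 were called by edgeR without the block, 8 were higher and 1 (*Lama2*) lower with it (7.91% and 6.09% of all genes), and the median was 0.57. The largest folds were those of *Col18a1* (80.7 and 128 against 16.8 and 14.1 CPM, log2 fold change 2.85), *Lama5* (48.1 and 63.4 against 6.62 and 10.0 CPM, 2.85) and *Npnt* (262 and 366 against 91.3 and 58.2 CPM, 2.16). *Npnt* encodes nephronectin, the ligand of the integrin of *Itga8* named above. Of 16 fibrillar and elastic matrix genes *Postn* was called higher, beside 0.511% of all genes (102 and 91.0 against 40.7 and 46.4 CPM, 1.25, adjusted p = 0.0302, in the fit of 4 sums 0.0907 and with members from 3 *Myh11* UMIs on 0.076). With the block 6 were higher and 1 (*Col5a1*) was lower, beside 7.91% and 6.09% of all genes.

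*Eln*, the elastin gene (chr5:134702593-134747323), was at 896 and 2387 CPM in members and at 161 and 413 CPM in *Myh11*-low cells. Its fold was alike in both libraries, but its level in either class was higher in replicate 2 (log2 fold change 2.62, adjusted p = 0.2, with the block 0.000216). Of the fibrillar collagens, *Col3a1* (855 and 777 against 719 and 420 CPM, log2 fold change 0.61) and *Col5a2* (583 and 409 against 458 and 327 CPM, 0.43) were higher with the block, while 2 others were called in neither fit: *Col1a1* was at 1451 and 745 against 1434 and 835 CPM (0.04), and *Col1a2* at 1872 and 1137 against 2101 and 1739 CPM (−0.26). In the insulin-like growth factor axis 0 of 9 tested genes were called without the block. With it, beside 7.91% and 6.09% of all genes, *Igfbp2*, *Igfbp7* and *Igf1r* were higher, and *Igfbp3* (14.9 and 10.9 against 51.9 and 89.1 CPM, −2.37), *Igf1* (14.3 and 17.7 against 34.3 and 62.3 CPM, −1.48) and *Igfbp4* were lower.

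**Figure D2:**
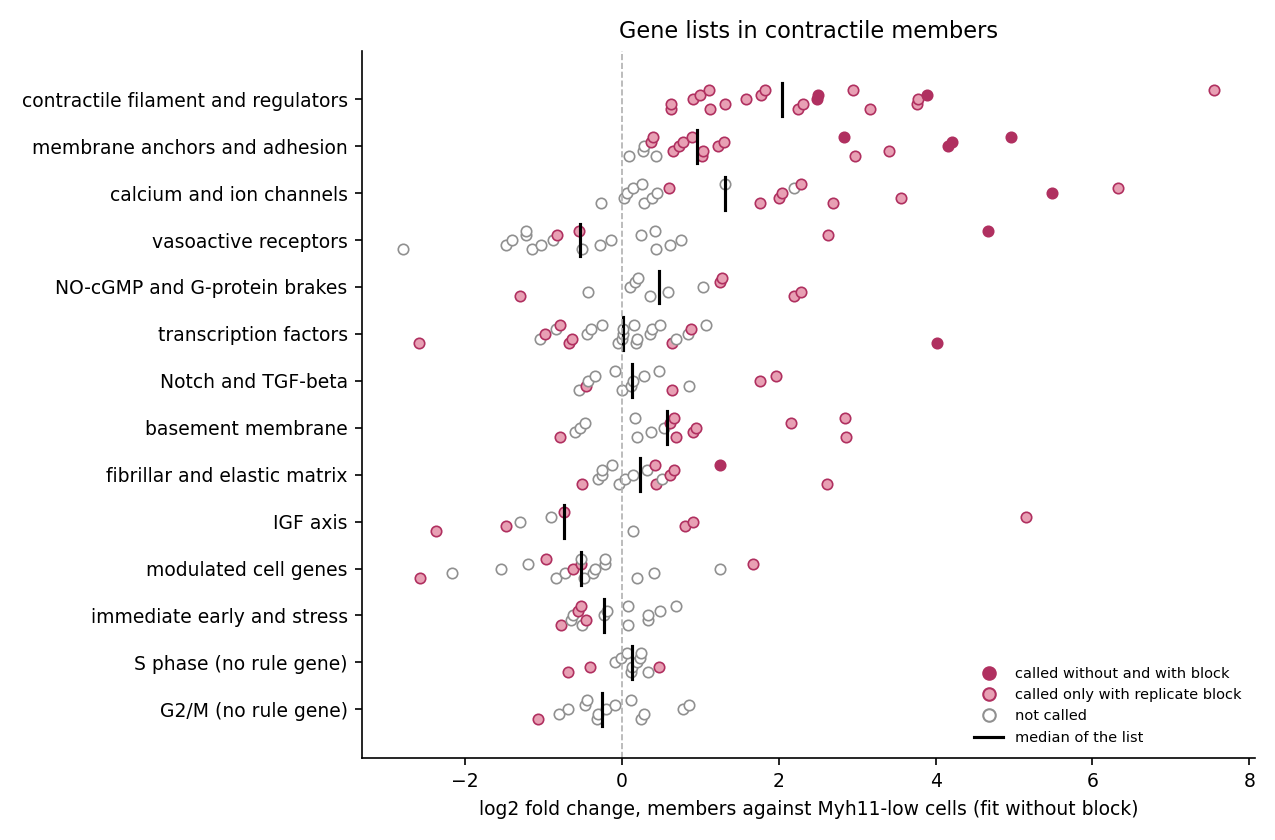
Log2 fold changes of members over *Myh11*-low cells for the tested genes of 14 gene lists, with 1 point per gene and a bar at the median of the list. Points are dark where called, light where called only with the block, and open where called in neither fit. Contractile filament genes center on 2.03, those of membrane anchors on 0.96 and those of basement membrane on 0.57, while the lists of the IGF axis and of vasoactive receptors have medians of −0.74 and −0.53.

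Only 6 genes were called lower in members. *Serpinb1a*, an inhibitor of neutrophil serine proteases, was at 116 and 151 CPM in members and at 480 and 525 CPM in *Myh11*-low cells (log2 fold change −1.81, SE 0.16, edgeR adjusted p = 0.0271, in the fit of 4 sums 0.0704). *Dab2*, an endocytic adaptor protein, was at 23.3 and 19.7 against 99.2 and 107 CPM (−2.17, SE 0.24, adjusted p = 0.0307). The others were the endosomal GTPase gene *Rab7b* (−2.71), *Mettl7a1* (−1.90), the granzyme B inhibitor *Serpinb9* (−1.27) and the Ras-related *Rras2* (−1.09). *Rab7b*, *Mettl7a1*, *Serpinb9* and *Rras2* missed the threshold when *Myh11*-low cells were held to the same *Acan* and *Pdgfra* limits as members (adjusted p 0.0531 to 0.066). *Rab7b* and *Mettl7a1* missed it also against depth-matched cells (0.0517 and 0.052), and *Dab2*, *Rab7b*, *Mettl7a1* and *Serpinb9* when members needed only 3 *Myh11* UMIs (0.0562, 0.0522, 0.0821 and 0.0661). *Rab7b* missed it also without the 5% of cells with most UMIs (0.0537), and *Serpinb9* with a mitochondrial share under 10% (0.053). Ranked by the same measure but outside the threshold followed *Dio2*, *Serpina3n*, *Adcyap1r1*, *Aldh1a2*, *Clec14a*, *Ifit1*, *Kitl*, *Il4ra* and *Ctla2a*, which were called lower with the block.

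Of 19 tested genes of modulated VSMCs none was called, and with the block 4 were lower (*Ly6a*, *S100a4*, *Timp1* and *Cxcl12*) and 1 was higher, beside 6.09% and 7.91% of all genes (*Spp1*, 365 and 160 against 96.9 and 78.8 CPM). The median log2 fold change was −0.52. In the members of both libraries 13 of the genes were lower and 3 higher, beside 5287 and 2975 of all 11750 tested genes. The rule limited *Pdgfra* in members only, and *Pdgfra* had a UMI in 71.8% and 63.5% of *Myh11*-low cells. What part of the lower levels in this list follows from that limit was not tested. *Ly6a*, the stem cell antigen Sca1, was at 105 and 19.9 against 417 and 373 CPM (log2 fold change −2.58, with the block 0.00511). *Lum* and *Dcn*, small matrix proteoglycans, were called in neither fit and differed between the libraries. *Lum* was at 95.4 CPM in members and 105 CPM in *Myh11*-low cells of replicate 1, but at 19.6 and 174 CPM in replicate 2. *Dcn* was at 276 and 401 CPM in replicate 1 and at 55.0 and 639 CPM in replicate 2.

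Markers of other cell types were counted beside these results, and their counts stand beside the 6.09% of all genes that were lower with the block. The 8 endothelial genes summed to 30.7 and 2.87 CPM in members and to 68.7 and 62.6 CPM in *Myh11*-low cells, with *Cdh5* the most abundant, and 3 were lower with the block. In members of replicate 1, *Cdh5* and *Cldn5* were found in only 2 of 151 cells each, and 1 cell held 29 of the 30 *Cdh5* UMIs and 1 cell 23 of the 30 *Cldn5* UMIs, so that the sum is not a level of the class. The 8 macrophage genes summed to 15.5 and 3.35 against 39.2 and 41.4 CPM, with *Ptprc*, *C1qa* and *C1qb* at 0 in members of both libraries and 2 of 4 tested lower with the block. The 8 adventitial fibroblast genes, *Lum* and *Dcn* among them, summed to 686 and 172 against 928 and 1136 CPM, and 3 were lower with the block. For these genes, too, the *Pdgfra* limit held in members only. The 6 pericyte genes summed to 467 and 308 against 178 and 187 CPM, of which *Rgs5* gave most in replicate 1 (292 and 84.7 against 86.8 and 110 CPM), and *Cspg4* was called higher (116 and 126 against 23.4 and 28.4 CPM). *Sox10* of Schwann cells, *Myh6* of heart muscle and *Adipoq* of fat cells were at 0 in members of both libraries. The 7 heart muscle genes, however, summed to 10.7 and 11.8 CPM in members and to 5.49 and 7.83 CPM in *Myh11*-low cells. Of these, *Actc1* had a UMI in 2 of 151 and 5 of 425 members, and 1 cell of replicate 2 held 26 of its UMIs. The adipocyte list also holds *Fabp4*, which was at 359 and 174 against 290 and 277 CPM and was called in neither fit. All chondrocyte genes that could be tested (*Col2a1*, *Col11a1*, *Comp* and *Sox9*) were lower with the block, although *Acan*, a chondrocyte gene, was part of the rule. The part of macrophage and fibroblast RNA in the calls against *Myh11*-low cells was not tested. Without the cells that held at least 3 UMIs of *Pecam1*, *Cdh5* and *Cldn5* summed, 86 genes were called higher and 11 lower.

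The remaining lists follow. Of the 12 S phase genes 1 (*Mcm6*) was higher and 2 (*Rrm1* and *Rrm2*) were lower with the block, and of the 14 G2/M genes 1 (*Birc5*) was lower, counts near the 7.91% and 6.09% of all genes. The same limit on cycling genes held in both classes. None of 6 CDK inhibitors was called in either fit, and *Cdkn1a*, the p53 target p21, was at 388 and 290 against 212 and 279 CPM. Of 15 immediate early and stress genes, which dissociation of cells can induce, 4 were lower with the block (*Fosb*, *Junb*, *Egr1* and *Ier2*), beside 6.09% of all genes, and the median was −0.23. Of 10 listed Hox genes, which mark position along the body axis, *Hoxa5* was lower with the block, beside 6.09% of all genes. In members of both libraries 8 had the lower level, as had 5287 of all 11750 tested genes, and the median was −0.37. The 1 tested Schwann cell gene, *S100b*, and the adipocyte gene *Lpl* were lower with the block, and the 1 tested heart muscle gene, *Tnnt2*, was called in neither fit.

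The members differed among themselves in how much *Myh11* they held. Non-cycling cells that met the *Acan* and *Pdgfra* limits were therefore followed in 6 steps from 0 to 20 or more *Myh11* UMIs. The first 3 steps lie outside the members. *Acta2* was at 3737, 6444, 9200, 12589, 12561 and 20114 CPM in replicate 1. In replicate 2 it was at 2136, 4074, 8200, 12580, 16998 and 23623 CPM, higher at every step. *Igfbp2* was at 619, 399 and 4385 CPM in the member steps of replicate 1, where 73, 41 and 37 cells were summed. In replicate 2, with 191, 172 and 62 cells, it was at 1993, 3203 and 3236 CPM.

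*Dab2* ran the other way, from 88.7 to 16.6 CPM over the steps of replicate 1 and from 94.1 to 10.0 CPM in replicate 2. *Serpinb1a* ran from 399 to 30.6 CPM in replicate 1 and from 484 to 78.1 CPM in replicate 2. *Lum* and *Dcn* separated the libraries again. *Dcn* was at 354 CPM at 0 *Myh11* UMIs and still at 344, 225 and 233 CPM in the member steps of replicate 1, but at 594 CPM and then at 76.3, 28.5 and 66.6 CPM in replicate 2. Cells with more *Myh11* UMIs were also deeper, with a median from 16598 to 31196 UMIs over the steps of replicate 1 and from 12728 to 21200.5 UMIs in replicate 2. Levels in CPM do not scale with depth, but the sorting of cells into steps does, and this share of the gradient was not tested.

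**Figure D3:**
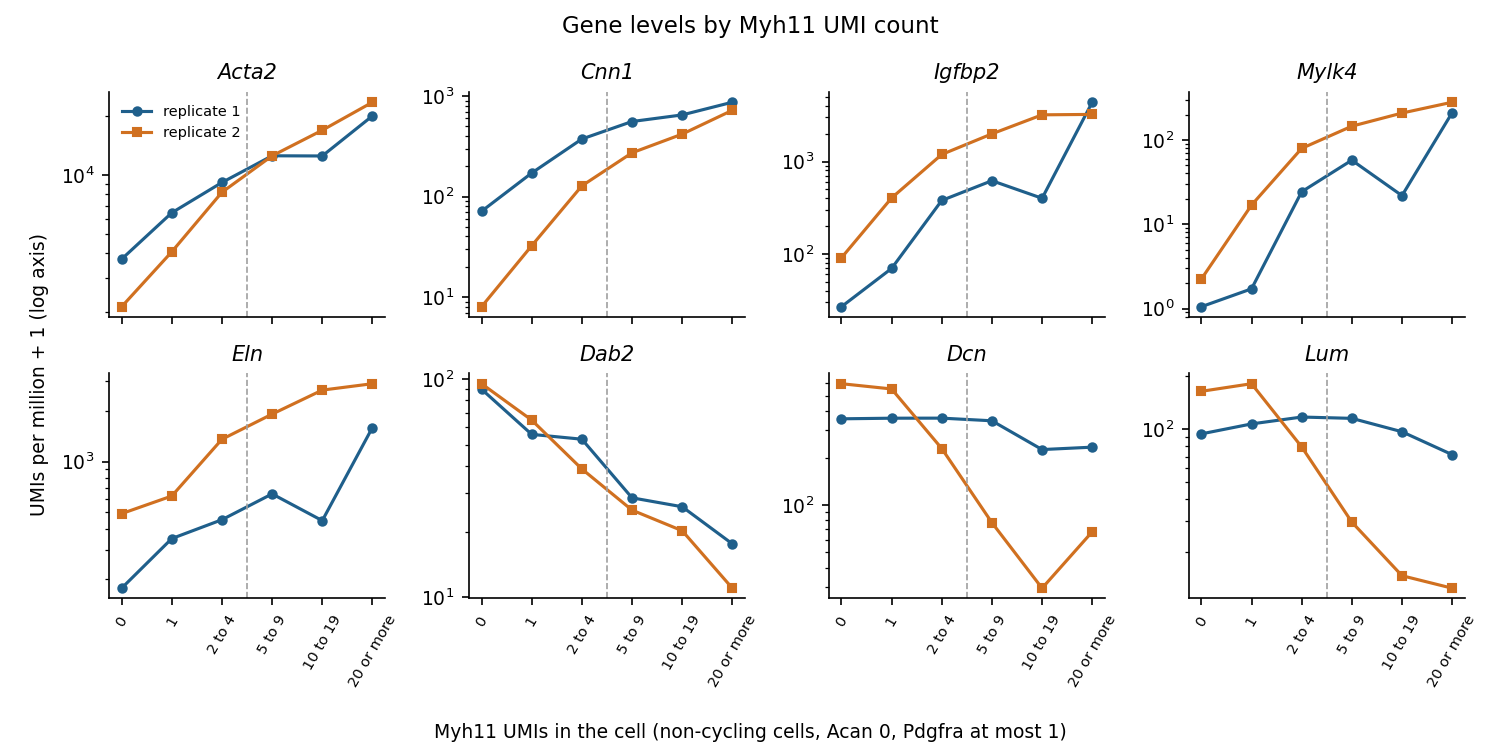
Level in CPM plus 1 (log axis) of 8 genes over 6 steps of *Myh11* UMIs per cell, with 1 line per library. *Acta2* runs from 3737 to 20114 CPM in replicate 1 and from 2136 to 23623 CPM in replicate 2, and the lines for *Dcn* part between the libraries from the step of 5 to 9 UMIs on.

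The uneven presence of *Mylk4* was used to describe the members further. This split was chosen after the values had been seen, and no test was run on it. In replicate 1, 37 of 151 members held a *Mylk4* UMI (24.5%, exact 95% interval 17.9 to 32.2%), and in replicate 2 it was 293 of 425 (68.9%, 64.3 to 73.3%). Members with and without *Mylk4* had a median of 24692 and 20866.5 UMIs in replicate 1 and of 18522 and 17767 UMIs in replicate 2, and of 19 and 9 *Myh11* UMIs in replicate 1 and 11 and 8.5 in replicate 2. Cells without a *Mylk4* UMI can still hold its mRNA below detection.

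The filament genes did not follow *Mylk4* alike. *Cnn1* was at 682 and 403 CPM in members with *Mylk4* and at 682 and 413 CPM in those without it. *Acta2* was at 18811 and 16675 CPM with and at 13715 and 15195 CPM without *Mylk4*, and *Tagln* at 11860 and 9929 against 5836.5 and 8079 CPM. *Actg2*, the enteric smooth muscle actin, was higher without *Mylk4* (426 and 537 against 1048 and 763 CPM). *Mylk* (215 and 217 against 615 and 282 CPM) and *Tpm1* (2362.5 and 2024 against 4709 and 2871 CPM) were higher without it, too. Some other genes were higher in the cells with *Mylk4*, with the larger differences in replicate 1. *Igfbp2* was at 5488 and 3085 CPM with and at 514 and 1765 CPM without *Mylk4*. *Ptprz1* was at 158 and 111 against 16.6 and 61.6 CPM, and *Itga7* at 45.6 and 23.7 against 4.14 and 13.9 CPM. *Kcnmb1* was at 81.2 and 69.8 against 7.15 and 47.7 CPM. *Npr1*, the ANP receptor, was at 23.3 and 11.2 against 1.51 and 4.08 CPM, while *Npr2* was at 32.2 and 35.6 against 19.96 and 29.8 CPM.

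Of genes chosen after their values were seen, the following were higher in the members without *Mylk4*. *Dcn* was at 362 and 142 CPM without and at 24.5 and 18.96 CPM with *Mylk4*. *Lum* was at 127 and 48.9 against 2.22 and 7.45 CPM. The regulator of G-protein signaling *Rgs5*, often used for pericytes, was at 385 and 219 against 15.6 and 29.1 CPM, and the Notch receptor *Notch3* at 55.4 and 19.6 against 5.56 and 4.91 CPM. *Grem1*, a BMP antagonist, was at 275 and 85.6 against 1.11 and 12.5 CPM. The pericyte genes did not all share this direction, since *Cspg4* (246 and 137 CPM with against 71.5 and 99.5 CPM without *Mylk4*) and *Abcc9* (63.4 and 90.4 against 34.6 and 71.0 CPM) were higher in the members with it.

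Within members with *Mylk4* the libraries lay closer to each other. Of the genes that reached 50 CPM in at least 1 library, 14 of 2961 (0.473%) differed more than 4-fold between the libraries in members with *Mylk4*, 49 of 3156 (1.55%) in members without it, and 53 of 3070 (1.73%) in all members. These shares describe 2 libraries and rest on different numbers of cells.

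**Figure D4:**
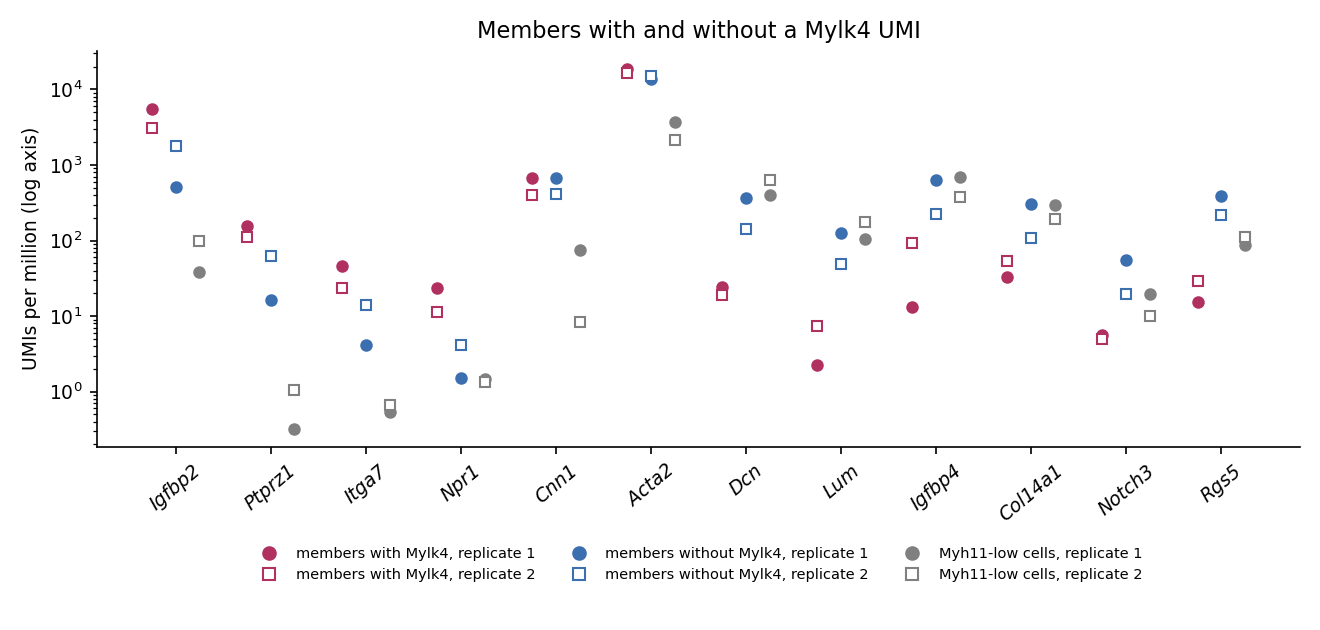
Level in CPM (log axis) of 12 genes in members with and without a *Mylk4* UMI and in *Myh11*-low cells, with 1 point per library (37 and 293 cells with, 114 and 132 cells without). *Cnn1* and *Acta2* lie close together in both subsets, *Igfbp2* and *Ptprz1* lie higher with *Mylk4*, and *Dcn*, *Lum* and *Rgs5* lie higher without it.

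Differences between the libraries could not be tested, since each library is 1 replicate. Members of replicate 1 were higher than those of replicate 2 in *Lgi2* (76.8 and 4.91 CPM), *Ltbp2* (114 and 7.42 CPM), *Nr4a1* (126 and 8.85 CPM) and *Plac8* (131 and 9.57 CPM). *Lgi2*, *Ltbp2* and *Plac8* had at most 6.67 CPM in members with *Mylk4*. Members of replicate 2 were higher in the synuclein gene *Sncg* (36.8 and 184 CPM), *Aldh1a7* (9.0 and 53.8 CPM), *Cst6* (8.44 and 68.7 CPM) and *Sfrp2*, a secreted Wnt modulator (148 and 1247 CPM). *Sfrp2* differed in members far more than in *Myh11*-low cells, where it was at 384 and 476 CPM. With and without *Mylk4* it was at 247 and 115 CPM in replicate 1 and alike in replicate 2 (1257 and 1224 CPM). *Xist* was at 0 and 351 CPM and *Ddx3y* at 85.2 and 0 CPM in members, with the same order in *Myh11*-low cells (0.0537 and 471 CPM, and 92.8 and 0 CPM). These are genes of the X and the Y chromosome. The sex of the animals and the library therefore cannot be told apart.

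The members were also compared with the cycling contractile cells, 65 and 270 cells that met the same limits but held at least 3 UMIs of the proliferation genes. This comparison asks which genes differ with the cell cycle among cells chosen by the same *Myh11* limit. Here 4 genes (0.034%) were called higher in the non-cycling members and 447 (3.8%) lower, and with the block 256 (2.18%) were higher and 825 (7.02%) lower. Unadjusted p-values under 0.05 were found for 1559 genes. Because *Mki67*, *Top2a* and *Cenpf* chose the classes, the lower level of other cycle genes follows from the rule and is not a finding. All 14 G2/M genes (median log2 fold change −5.02) and all 12 S phase genes (−2.43) were called lower. *Aspm*, a spindle protein, was at 0.563 and 1.20 CPM in members and at 95.8 and 100.4 CPM in cycling cells. Among CDK inhibitors only *Cdkn2c* was called (lower, −3.10).

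Of the 20 contractile filament genes 18 were higher and 1 lower in non-cycling members of both libraries, beside 3348 and 4711 of all 11750 tested genes. None of the 20 was called by edgeR without the block. With it 4 (*Myl6*, *Mylk*, *Tpm1* and *Cald1*) were higher in non-cycling members, beside 2.18% of all genes. The median of the list was 0.41 beside 0.06 for all tested genes. Without TMM scaling the median of all genes was −0.04. Scaling shifts all genes about alike, so that values of lists are best read beside the median of all genes. Cycling cells were deeper, with a median of 26443 and 23740.5 UMIs against 21409 and 18182 in members. The same limit of 5 *Myh11* UMIs is then a smaller share of their RNA. *Myh11* itself was at 530 and 465 CPM in cycling cells and at 641 and 631 CPM in members. What part of the difference in the contractile list follows from this limit was not tested. *Acta2* was at 13504 and 11639 CPM in cycling cells, *Igfbp2* at 1497 and 1882 CPM and *Mylk4* at 73.5 and 107 CPM, all of them far above *Myh11*-low cells. The genes called higher in non-cycling members were *Trappc4*, a vesicle tethering factor (194 and 187 against 130 and 139 CPM, log2 fold change 0.60, adjusted p = 0.0408), *Snhg18* (154 and 142 against 94.1 and 91.7 CPM, 0.77, adjusted p = 0.0485), *Armcx1* (19.97 and 19.86 against 11.4 and 11.8 CPM, 0.88, adjusted p = 0.038) and *Tcp11l2*. *Trappc4*, *Snhg18* and *Armcx1* missed the threshold when library size alone was used for scaling (adjusted p 0.0527 to 0.0757) and in a fit of only the 4 sums of both classes (0.13 to 0.226). *Armcx1* missed it also with DESeq2 (0.0615), and *Armcx1* and *Trappc4* without the filter on low counts (0.104 and 0.112).

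**Figure D5:**
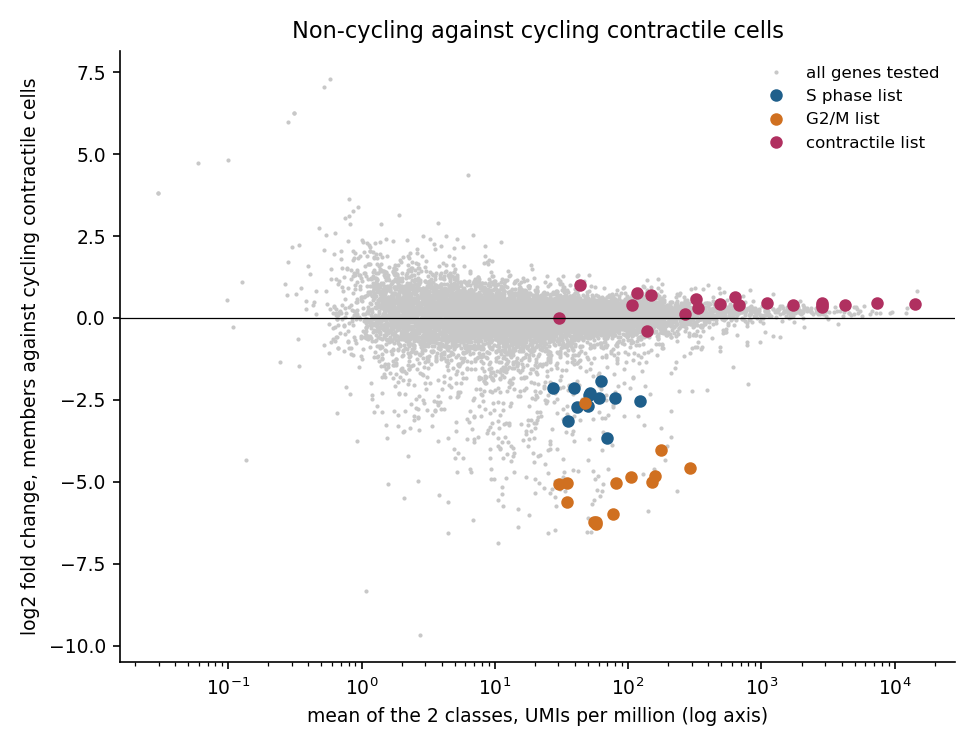
Log2 fold change of non-cycling members over cycling contractile cells against the mean level of both classes in CPM (log axis), with 1 point per tested gene and the genes of 3 lists in color. S phase and G2/M genes lie below 0 (medians −2.43 and −5.02), as the rule sets, and contractile genes center on 0.41.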

How the data were processed

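The data were UMI counts per gene and barcode of 2 scRNA-seq libraries, aligned by the authors and deposited as whole-number counts without normalization or selection of cells. The submitters' processing notes name Cell Ranger 3.0.2 and the build mm10. The header of the replicate 2 matrix names another version, which was not resolved. The cell filters are those of the study.

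Counts were summed per library and class (8 sums: members, *Myh11*-low, cells with 2 to 4 *Myh11* UMIs, cycling contractile cells) and tested with edgeR 4.0.16 in R 4.3.3 (TMM, filterByExpr, quasi-likelihood, Benjamini-Hochberg). The 6 rule genes counted in library sizes only. DESeq2 1.42.0 was an alternative. CPM are UMIs per 1000000 UMIs of a sum. Same-numbered sums share a culture, and their deviations from the class means correlated at 0.541 to 0.697 across genes, so that a fit with the library as a block was run beside the main design. A share of 0 allows up to 3 counts. Doublets were kept.

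The members and the 24 gene lists were chosen with earlier results of these data known. Named were genes of the lists and the 5 genes with the largest difference between libraries in each direction. Chosen for each direction, too, were the 15 (against *Myh11*-low) or 5 (against cycling cells) genes with the largest smaller-of-2-libraries fold. These had at least 10 CPM in the higher class. Genes past the threshold came first, and where these were too few, genes outside it followed. Further called genes and the *Mylk4* split were chosen after their values were seen. Of 31053 gene identifiers 30934 matched GENCODE M21 (GRCm38), from which coordinates are given, and sequences are from RefSeq.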

Additional observations from a re-analysis of the deposited data

Results flagged for a closer look

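Cells with at least 5 *Myh11* UMIs also occurred outside the comparisons. Among non-cycling cells that passed the filters, 71 in replicate 1 and 66 in replicate 2 were left out because they held an *Acan* UMI. *Acan* encodes aggrecan, a proteoglycan best known from cartilage. These cells had more *Igfbp2* (7399 and 4391 CPM), *Mylk4* (303 and 228 CPM), *Eln* (2672 and 4260 CPM) and *Acta2* (20795 and 18472 CPM) than the members of the same library, and less *Lum* (3.27 and 7.63 CPM). The cartilage gene *Comp* was at 8.72 and 0 CPM in them. No test was run on these values.

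A further 67 and 26 non-cycling cells with at least 5 *Myh11* UMIs and no *Acan* held 2 or more *Pdgfra* UMIs. They had less *Igfbp2* (209 and 690 CPM), *Mylk4* (0 and 81.7 CPM) and *Eln* (275 and 833 CPM) and more *Dcn* (309 and 472 CPM) than the members. Outside the cell filters, 5 barcodes in replicate 1 and 8 in replicate 2 held at least 5 *Myh11* UMIs, of which 4 and 5 had 20% or more mitochondrial UMIs and 3 in each library had under 3000 UMIs.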

How the results depend on the processing

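The number of calls depended on the fit, and with 2 libraries only effects that are large against the spread between cultures passed. Genes called higher than in *Myh11*-low cells were 60. They were 392 with DESeq2, 306 without the filter on low counts, 930 with the replicate block, 23 in a fit of only the 4 sums compared, 213 with a limit of 10 *Myh11* UMIs, 136 with limits on the share of *Myh11*, 38 against depth-matched cells and 39 with the *Acan* and *Pdgfra* limits on both classes. Genes called lower were 6. They were 132, 111, 715, 1, 34 and 23 under the first 6 of these settings, 2 with the limits on both classes, 11 without endothelial-marker cells and 10 after subtraction of 10% free RNA. With the replicate block, combinations chosen after seeing the data gave 826 higher and 662 lower (depth-matched), 873 and 647 (limits on both classes) and 780 and 491 (free RNA subtracted). Against cycling cells 4 genes were higher, and 24 with DESeq2, 1 with library size alone, 256 with the block, 7 without the 5% deepest cells and 0 in the fit of 4 sums, where edgeR gave 1165 genes in either direction an unadjusted p under 0.05. Genes called lower were 447, and 825 with the block and 288 in the fit of 4 sums. The cause of these shifts was not tested.

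Members made up 4.67% of kept cells as a mean of the libraries, from 3.1 to 6.23% when 1 replicate was left out, and 0.802% after thinning to 3000 UMIs, which lowers *Myh11* counts by construction. For 101 genes followed against *Myh11*-low cells, 1423 of 1918 values under alternatives kept direction and call, 386 gained and 48 lost the call, 57 moved without a test, and 4 reversed. These were *Cacna1c* (−0.070 with at least 10 *Myh11* UMIs), and, in the range without 1 replicate each, *Pde5a* (−0.17 to 0.39), *Rgs5* (−0.38 to 1.75) and *Notch3* (−0.12 to 1.12). Counts of calls without a replicate were not run, since a single library leaves no residual degrees of freedom within a class.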
